A study of Danio rerio with 4 samples.

Results

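The 4 libraries of this zebrafish series carry a number, 1 or 2, beside their genotype, and the 2 libraries numbered 2 were compared with the 2 numbered 1, out of 4 in all. The libraries numbered 2 were made from tbx1 mutant embryos (mutant 2) and from wild-type embryos (control 2), and those numbered 1 likewise (mutant 1 and control 1), so genotype could be kept in the model. The gene tbx1 codes for a transcription factor of the T-box family, and mutants carry its vgo (van gogh) allele, which the labels describe as null. All embryos were at 6 somites, 12 h after fertilization, and all had lost the tip of the tail and some nearby yolk to genotyping before polyadenylated RNA was taken from the remainder. The labels give the number no meaning such as a clutch, a day or a sequencing lane, and do not say whether a library holds 1 embryo or several. The p-values therefore reflect no more than these 4 libraries. They weigh a gene's difference by number against how far that difference disagrees between controls and mutants, pooled with other genes. Whatever libraries of the same number share counts as difference, and both parts may be technical. The comparison asks which tissue or stage programs differ together between libraries of the same stage and genotype.

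At this stage the zebrafish embryo lengthens from its rear end. The tailbud holds cells marked by T-box genes and by the helix-loop-helix gene msgn1, which feed the presomitic mesoderm, where oscillating hairy-related genes time the cutting of somites. Cdx genes and Hox genes of high paralog number mark the trunk and tail, and Hox genes of low number the hindbrain. Toward the head, brain regions, neural crest, placodes, epidermis, hatching gland and the earliest muscle are already switching on their own genes.

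The authors' table gave FPKM values (fragments per kilobase of transcript, scaled to sequencing depth) for 32538 genes. Of these, 32400 had a usable estimate in all 4 libraries, 27952 of them a locus of at least 300 bp, and 13202 of those a mean of at least 1 FPKM. Differences are given on the scale of log2(FPKM + 0.5), as libraries numbered 2 minus libraries numbered 1, each being the mean of the control pair and the mutant pair. A gene is called when its adjusted p in limma (Benjamini-Hochberg over all 13202 genes) is under 0.05. Where called genes are described below, a gap between their groups is no further support, since they were picked by this p. Defining markers of tailbud (msgn1), epidermis (tp63), hatching gland (he1a) and yolk syncytial layer (apoa1a) were measured above 10 FPKM in each library, at the values given with their lists, as a label of whole embryo implies. Read totals were not used here, but the widths of the authors' 95% intervals put the relative depth at 0.842 in control 2 and 0.740 in mutant 2, against 1 in control 1 and 0.822 in mutant 1. By these widths the library numbered 2 was the shallower within each genotype. This measure is indirect, and 71.7% of tested genes had all 4 values inside those intervals. Of the genes called by library number 62.3% did. The part of depth in the differences was not tested.

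More genes were called by library number than by genotype. Of the genes tested, 324 (2.45%) were called higher and 289 (2.19%) lower in the libraries numbered 2, together 613 (4.64%), while the same limma fit called 24 genes (0.182%) by genotype. An unadjusted p under 0.05 was found for 23.1% of genes. Both libraries numbered 2 lay above both numbered 1 for 24.1% of genes and below them for 29.1%. Most differences were modest. The median size among called genes was 0.42 on the log2 scale, 157 of the called genes differed by at least 1.5-fold and 18 by at least 2-fold, and 89.2% of all tested genes lay within 0.3 of 0. The median over all tested genes was -0.02, and 45.3% of them had a difference above 0.

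The differences in the mutant pair and in the control pair share no library, and across genes they had a Pearson r of 0.35 and a Spearman rho of 0.43. Their signs were equal for 66.5% of genes. Among the 8415 genes with a mean of at least 5 FPKM r was 0.51, and among the 3933 with at least 20 FPKM it was 0.58. Genes are not independent replicates, so these values are descriptive. The number of calls depended strongly on the model: without the genotype term limma called 41 genes higher and 29 lower, and without the mean-variance trend, or with no minimum FPKM, 0 of either, although 1088 higher and 1370 lower had an unadjusted p under 0.05 without the trend and 1775 and 1926 with no minimum. With 1 library left out, the counts were 0 to 33 higher and 0 to 30 lower.

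**Figure D1:**
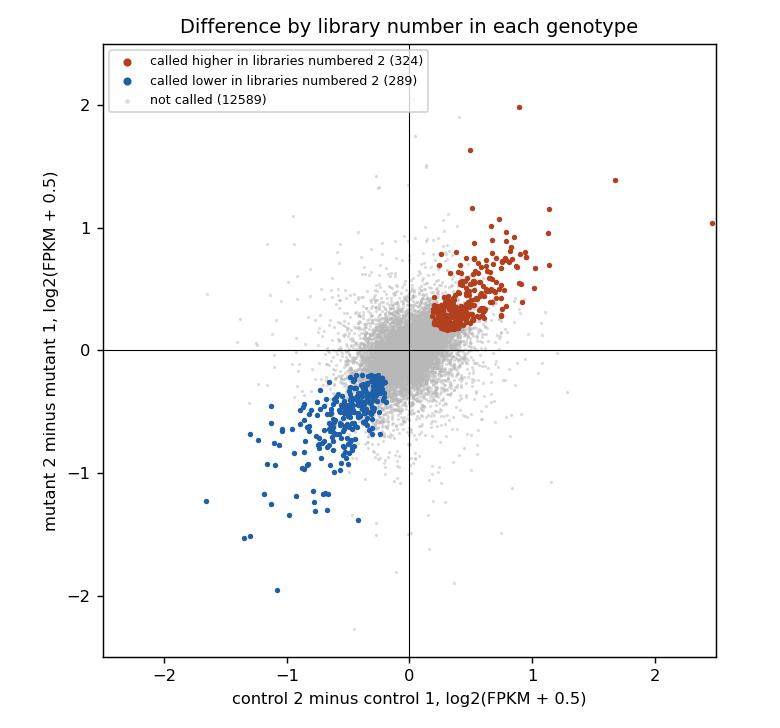
Each point is 1 of the 13202 tested genes, with the difference of control 2 minus control 1 on the horizontal axis and of mutant 2 minus mutant 1 on the vertical axis, both in log2(FPKM + 0.5). The 324 genes called higher lie toward the upper right and the 289 called lower toward the lower left, and 8 uncalled genes lie beyond the axis limit of 2.5.

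The tailbud list had the highest median of the 46 lists. Of 19 tested rows of the tailbud list, 10 were called higher and 0 lower, against 2.45% and 2.19% of all tested genes. The list's median difference was 0.44 (0.48 in the control pair, 0.37 in the mutant pair) against -0.02 over all genes. msgn1, which drives presomitic mesoderm fate, was measured at 47.9 FPKM in control 2 and 39.1 FPKM in mutant 2, against 21.6 FPKM in control 1 and 19.8 FPKM in mutant 1. Both libraries numbered 2 were far above both numbered 1. The means were 43.5 ± 6.204 FPKM in libraries numbered 2 and 20.7 ± 1.204 FPKM in those numbered 1 (SD, n = 2 each), so their ratio was 2.101. The log2 difference was 1.05, with an SE of 0.0663 and a 95% interval of 0.89 to 1.2 (adjusted p = 0.00183 in limma). The gene (ENSDARG00000070546) lies on Zv9 chromosome 4 from 16557 to 17644, and its 4 deposited values lay outside their own 95% intervals, as all 4 did for tbx6 below. The same held for other called genes named below, among them tbx16, cdx1a, hoxa9b, hoxc6b, foxg1a, six3a and lama5.

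Several T-box genes of the tailbud list also rose. tbx6, a gene of presomitic mesoderm, stood at 87.4 and 78.1 FPKM in control 2 and mutant 2, against 60.2 and 58.2 FPKM in control 1 and mutant 1 (log2 difference 0.48, SE 0.0549, adjusted p = 0.0105 in limma). ntla, the zebrafish Brachyury gene needed for notochord and tail, stood at 21.3 and 19.1 FPKM against 14.97 and 12.9 FPKM (0.52, adjusted p = 0.0153). In both genes the groups did not overlap. tbx16 (spadetail), which directs mesodermal cells into the trunk, rose by a log2 difference of 0.47 (5.96 and 6.86 FPKM in control 2 and mutant 2, 4.12 and 4.89 FPKM in control 1 and mutant 1). tbx6l, chosen after its values were seen, rose by 0.66. wnt8a, a Wnt ligand of the embryo's rear end, rose by 0.44 at 1 of its 2 overlapping loci, whose reads may be split between them, with 8.92 and 7.62 FPKM in control 2 and mutant 2 and 6.12 and 5.78 FPKM in control 1 and mutant 1. Other tailbud genes did not pass. The zinc finger gene sall4 had a difference of 0.23, fgf8a of 0.06 and the Bmp ligand bmp4 of -0.29.

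The summed level of the tailbud rows was 642 FPKM in control 2 and 594 FPKM in mutant 2, against 489 FPKM in control 1 and 475 FPKM in mutant 1, and control 2 held the highest value in 12 of the 19 rows, against 22.2% of all tested genes. In bulk RNA fewer cells of a type and less RNA per cell cannot be told apart. The tail tip had been cut from every embryo, the sources used here do not say how much of it remained in each library, and a difference in the cut and a difference in tailbud RNA cannot be told apart. Leaving out control 1, control 2, mutant 1 or mutant 2 gave list medians of 0.36, 0.34, 0.40 and 0.37, with 3, 0, 1 and 0 members called. With the genes whose 4 values all lay inside their own intervals, a setting chosen after seeing the data, 6 members were called and the median was 0.26.

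The segmentation clock was split. Of 25 tested genes of the presomitic mesoderm and somite segmentation list, 5 were called higher and 1 lower, with a median of 0.07. The shares over all tested genes were 2.45% and 2.19%. The tailbud list also holds her1 and msgn1, the latter with the largest difference of the segmentation list. Calls are thus shared between these lists. her1 and her7, neighbouring helix-loop-helix repressors of the clock on chromosome 5, both rose. her7 was at 10.8 and 10.4 FPKM in control 2 and mutant 2, against 6.06 and 5.38 FPKM in control 1 and mutant 1 (log2 difference 0.84, SE 0.0865, adjusted p = 0.00748 in limma). her1 was at 21.7 and 18.3 FPKM in the libraries numbered 2 and at 12.7 and 12.5 FPKM in those numbered 1 (0.64, adjusted p = 0.0129). ripply2, which closes the segmentation program as a somite boundary forms, rose by 0.51, with 27.1 and 24.7 FPKM in control 2 and mutant 2 against 15.96 and 20.3 FPKM in control 1 and mutant 1. For all 3 the libraries numbered 2 were the higher ones without overlap, by the narrowest gap in ripply2. By contrast, her12 had a difference of -0.04, the Notch ligand genes dlc and dld of -0.04 each and ripply1 of -0.03, none of them called.

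The 1 gene of the segmentation list called lower was uncx4.1, a homeobox gene of the rear part of each somite. It fell by 0.68 on the log2 scale and stood at 6.91 and 6.90 FPKM in control 2 and mutant 2, against 10.2 and 12.6 FPKM in control 1 and mutant 1 (adjusted p = 0.0173 in limma). meox1, a homeobox gene of somites, was at -0.14 and par1 at -0.11, both uncalled. myf5, the earliest muscle-specifying factor gene and active already in presomitic mesoderm, rose by 0.39 (41.9 and 34.1 FPKM against 29.2 and 28.3 FPKM in control 1 and mutant 1). twist2, a mesenchymal helix-loop-helix gene listed here under notochord, rose by 0.89, with 7.59 and 6.29 FPKM in control 2 and mutant 2 against 3.97 and 3.07 FPKM in control 1 and mutant 1.

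**Figure D2:**
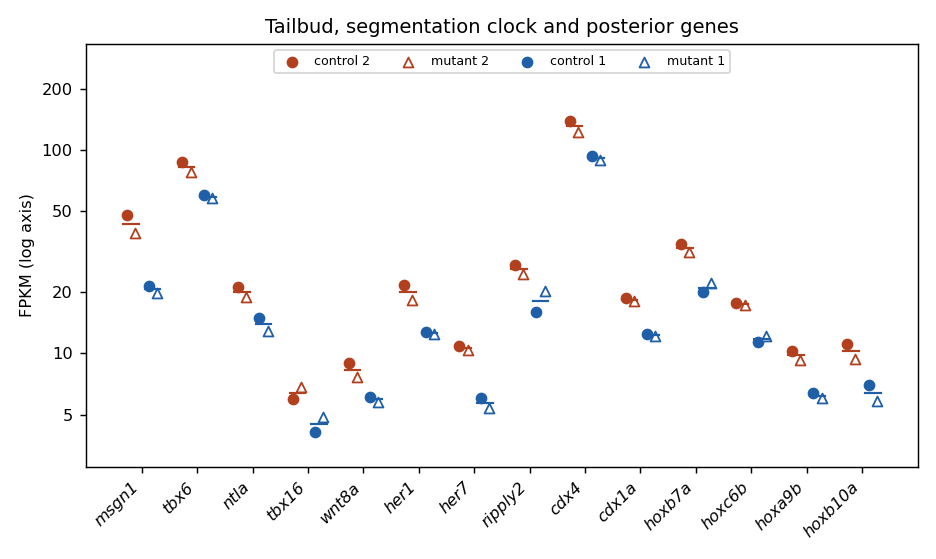
FPKM on a log axis for 14 genes in control 2 and mutant 2 (red, left) and in control 1 and mutant 1 (blue, right), with circles for controls, triangles for mutants and bars for the mean of each pair of libraries. In each of the 14 genes both red values lie above both blue ones. The genes were picked as higher in the libraries numbered 2, so this separation follows from the choice. Examples are msgn1 at 47.9 and 39.1 against 21.6 and 19.8 FPKM and hoxb10a at 11.1 and 9.41 against 6.99 and 5.84 FPKM.

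Several trunk and tail patterning genes rose. Of 22 tested genes of the spinal cord and posterior Hox list, 7 were called higher and 0 lower. Among all tested genes these shares were 2.45% and 2.19%. In 19 of the list's genes the difference was above 0 (median 0.32, with 0.37 in the control pair and 0.25 in the mutant pair), against 45.3% of all tested genes. Control 2 alone held the highest value in 16 of the 22, against 22.2% of all tested genes. The Cdx genes activate posterior Hox genes. cdx4 was at 140 FPKM in control 2 and 122.97 FPKM in mutant 2, against 93.6 FPKM in control 1 and 89.99 FPKM in mutant 1 (log2 difference 0.51, SE 0.0540, adjusted p = 0.00815 in limma). cdx1a was at 18.7 and 18.1 FPKM against 12.4 and 12.1 FPKM (0.56, adjusted p = 0.0134). The groups were well separated in both genes, which the tailbud list also holds, as it does hoxb10a.

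Among the Hox genes hoxb7a was at 34.6 and 31.4 FPKM in control 2 and mutant 2 and at 20.1 and 22.1 FPKM in control 1 and mutant 1, a mean ratio of 1.56 (log2 difference 0.63, SE 0.0775, adjusted p = 0.0129 in limma). hoxb10a rose by 0.64, hoxa9b by 0.62 and hoxc6b by 0.56. hoxc8a rose by 0.42 and hoxc3a by 0.38, both chosen after their values were seen. These 2 are called neighbours on chromosome 23, where hoxc3a spans 36158333 to 36200915 in Zv9 and hoxc8a 36152728 to 36155179. In the spinal cord genes nkx6.1 and nkx6.2, which pattern the ventral neural tube, the differences were 0.36 and 0.28 and neither was called.

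Split by paralog group, a division chosen after the values were seen and given without a test, the 16 tested Hox genes of groups 6 to 10 had a median of 0.32, 15 of them above 0 and 5 called higher. The 16 of groups 1 to 5 had a median of -0.11, 4 of them above 0 and 2 called higher. Of all tested genes 45.3% lay above 0 and 2.45% were called higher. The pair called among the low groups was hoxc3a and hoxb1b, a hindbrain gene at 73.0 and 66.1 FPKM in control 2 and mutant 2 against 59.4 and 55.9 FPKM in control 1 and mutant 1 (0.27). The hoxc3a locus spans those of hoxc4a, hoxc5a and hoxc6a, and the hoxb3a locus those of hoxb4a, hoxb5a and hoxb6a. These overlapping loci may share reads, also between low and high paralog groups. The Hox genes of groups 6 to 10 summed to 171 FPKM in control 2 and 153 FPKM in mutant 2, against 120 FPKM in control 1 and 124 FPKM in mutant 1. Those of groups 1 to 5 summed to 252 and 230 FPKM in control 2 and mutant 2, against 224 and 232 FPKM in control 1 and mutant 1, so these sums overlapped. As for the tailbud, the tail cut cannot be told apart from these differences.

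**Figure D3:**
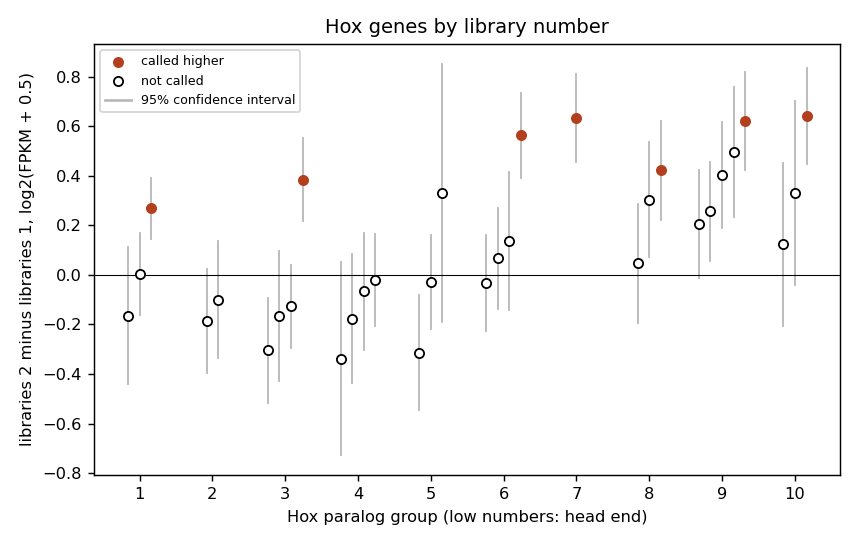
Log2 difference (libraries numbered 2 minus libraries numbered 1) of the 32 tested Hox genes by paralog group, with 95% confidence intervals from limma as grey lines and called genes filled. Of the 16 genes in groups 6 to 10, 15 lie above 0, against 4 of the 16 in groups 1 to 5 and 45.3% of all tested genes.

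Some genes that switch on as somites form fell. Of 28 tested rows of genes rising during somitogenesis, 0 were called higher and 6 lower, against 2.45% and 2.19% of all tested genes. In 25 rows the difference was below 0 (median -0.26, with -0.22 in the control pair and -0.26 in the mutant pair), while 45.3% of all tested genes lay above 0. The highest value was that of mutant 1 in 18 of the 28 rows, against 28.6% of all tested genes. smyhc1, the myosin heavy chain of the earliest slow muscle fibres, was at 5.37 and 6.72 FPKM in control 2 and mutant 2, against 8.62 and 9.80 FPKM in control 1 and mutant 1 (log2 difference -0.57, SE 0.0888, adjusted p = 0.0202 in limma). elavl3, a marker of newly born neurons, was at 9.32 and 12.2 FPKM against 14.97 and 14.7 FPKM (-0.46, adjusted p = 0.0471). The groups did not overlap in either gene, with mutant 2 the nearer one in both. The muscle actin gene actc1b fell by 0.38 and sox10, a neural crest factor, by 0.34. Embryonic globin hbbe1.1 fell by 0.74 at 1 of its 2 loci, near the lower limit of testing at 1.49 and 1.02 FPKM in control 2 and mutant 2 against 2.44 and 2.37 FPKM in control 1 and mutant 1.

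The hatching enzyme genes he1a and he1b, adjacent copies expressed in the hatching gland, both fell. he1a was at 214 FPKM in control 2 and 248 FPKM in mutant 2, against 272 FPKM in control 1 and 322 FPKM in mutant 1 (-0.36, SE 0.0471, adjusted p = 0.0153 in limma). Reads of near-identical copies may have been split between these genes. The other 10 tested genes of the hatching gland list were not called (list median -0.03). Genes that fade after gastrulation had a median of 0.01, with 5 of 33 called higher and 1 lower (2.45% and 2.19% of all tested genes). Those higher included chd, which encodes the Bmp antagonist Chordin (32.4 and 26.3 FPKM in control 2 and mutant 2, 19.1 and 19.4 FPKM in control 1 and mutant 1, 0.59), the forkhead gene foxd5 (0.52), frzb, a secreted Wnt antagonist (0.48), and the pluripotency factor gene pou5f1 (0.57). The remaining gene called higher was tbx16, which the tailbud list also holds. bambia, a pseudoreceptor of the Bmp pathway, fell by 0.26. The early skeletal muscle list was mixed, with 1 of 27 called higher and 3 lower (median 0.02, or -0.10 to 0.05 over the settings tried).

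**Figure D4:**
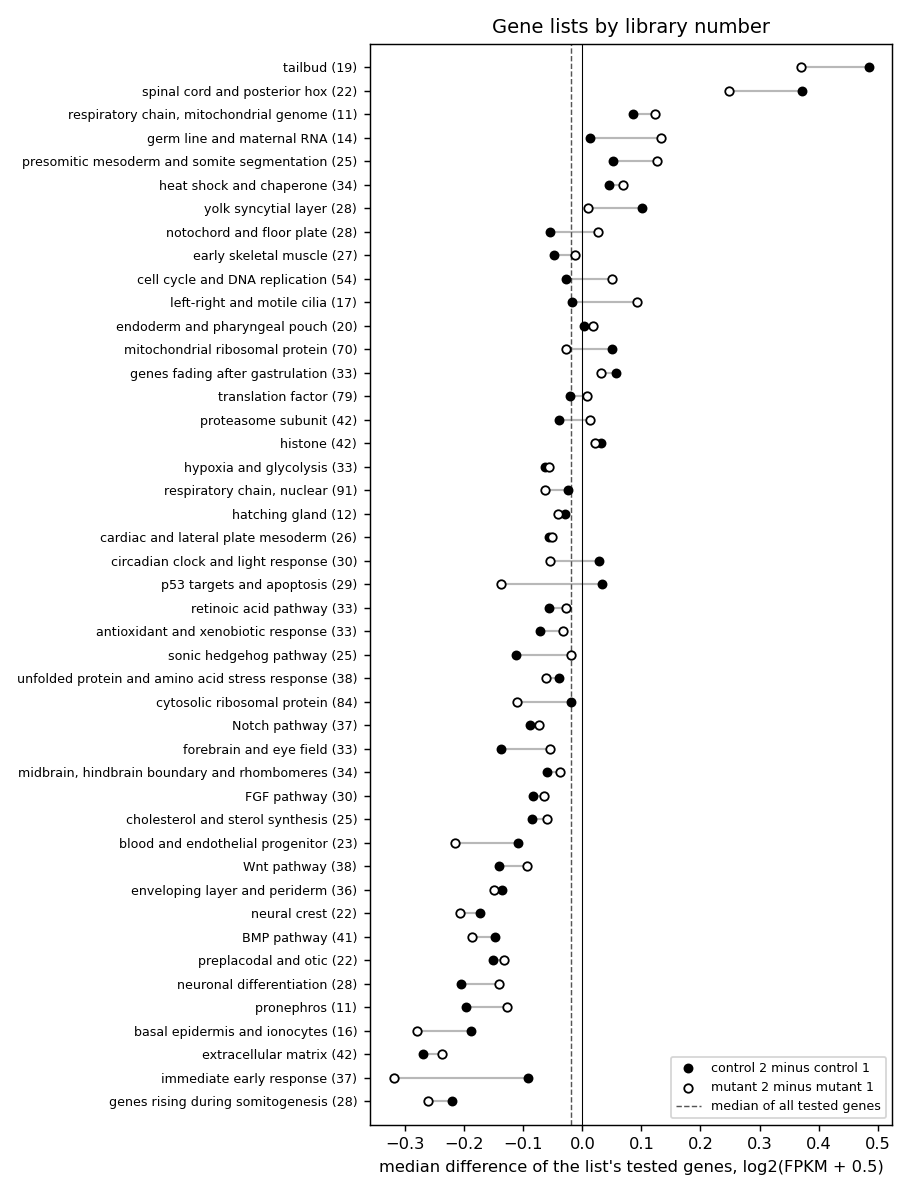
Median log2 difference of the tested genes of each list with at least 10 tested, for control 2 minus control 1 (filled) and mutant 2 minus mutant 1 (open), with the number of tested genes in brackets and the median of all tested genes (-0.02) dashed. The tailbud (0.48 and 0.37) and posterior Hox (0.37 and 0.25) lists lie farthest to the right. Matrix genes (-0.27 and -0.24), genes rising during somitogenesis (-0.22 and -0.26) and basal epidermis (-0.19 and -0.28) lie to the left in both pairs, and the points of the immediate early list (-0.09 and -0.32) lie apart. Lists share members.

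Several forebrain genes fell. Of 33 tested forebrain and eye field genes, 5 were called lower and 0 higher, against 2.19% and 2.45% of all tested genes. The list's median was -0.07. foxg1a, a forkhead gene of the telencephalon, was at 5.08 and 5.85 FPKM in control 2 and mutant 2, against 7.72 and 9.13 FPKM in control 1 and mutant 1 (log2 difference -0.58, SE 0.0889, adjusted p = 0.0195 in limma). six3a, a homeobox gene of the anterior neural plate, was at 6.29 and 7.18 FPKM against 9.23 and 10.2 FPKM (-0.50). fezf1, a forebrain zinc finger gene, fell by 0.94, sp8a by 0.48 and rx1, an eye field homeobox gene, by 0.88 at levels close to 1 FPKM. Abundant genes of the same regions did not pass. rx3 had a difference of 0.22, otx2 of 0.17 and six3b of -0.15. In the midbrain and hindbrain list 1 of 34 was called higher (hoxb1b) and 1 lower (meis4.1a, -0.44), with a median of -0.07.

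Neural crest, placode and neuronal lists held more falls than rises, while 2.19% of all tested genes were called lower and 2.45% higher. Of 22 neural crest genes 5 were called lower and 0 higher (median -0.15). sox9b, a Sox factor of crest and cartilage, was at 28.2 FPKM in control 2 and 32.2 FPKM in mutant 2, against 41.5 FPKM in control 1 and 41.9 FPKM in mutant 1 (-0.46, SE 0.0647, adjusted p = 0.0162 in limma). The homeobox gene msxc (-0.35), the epithelial to mesenchymal transition gene snai1b (-0.37) and sox10 (-0.34) fell too, and foxd3, an early crest gene, was at -0.23 without being called. The remaining crest call was dlx3b, which the preplacodal and basal epidermis lists also hold. In 16 of the 22 genes mutant 1 held the highest value of the 4 libraries, against 28.6% of all tested genes. Of 22 preplacodal and otic genes 3 were called lower and 0 higher (median -0.16), namely dlx3b (-0.25) with its neighbour dlx4b (-0.34), and six2a (-0.59). Of 28 neuronal differentiation genes 2 were called lower, elavl3 and the Notch ligand gene dlb (-0.43), and 1 higher, the tubulin regulator stmn1a (0.24), with a median of -0.18.

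Some genes of both layers of the embryo's skin fell, where 2.19% of all tested genes were called lower and 2.45% higher. Of 16 tested basal epidermis and ionocyte genes, 5 were called lower and 0 higher (median -0.24), and of 36 enveloping layer and periderm genes, 7 lower and 0 higher (median -0.15). The highest library was mutant 1 in 12 of the 16 and in 19 of the 36, against 28.6% of all tested genes. tp63, the master regulator of basal epidermis and a member of both lists, was at 31.5 and 31.7 FPKM in control 2 and mutant 2, against 37.9 and 39.9 FPKM in control 1 and mutant 1 (log2 difference -0.30, SE 0.0581, adjusted p = 0.0365 in limma). lama5, a laminin chain of the basement membrane under the skin, was at 7.61 and 7.69 FPKM against 10.6 and 11.9 FPKM (-0.52), and the Notch ligand gene jag2 fell by 0.37. The other basal genes called lower were dlx3b and gata2a. Calls are shared between lists here too, as dlx3b also counts in the neural crest and preplacodal lists. Likewise gata2a counts in the blood list and jag2 in the pronephros list. In the periderm the keratin genes cyt1 (607 and 652 FPKM in control 2 and mutant 2, 725 and 821 FPKM in control 1 and mutant 1, -0.29), cyt1l (-0.28) and krt17 (-0.26) fell by small amounts and without overlap. They are related keratin genes on chromosome 19 that may share reads, so they are not independent. The tight junction gene cldnb fell by 0.31.

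Some genes of the Bmp pathway, whose signal specifies ventral ectoderm, also fell. Of 41 tested members 7 were called lower and 1 higher, against 2.19% and 2.45% of all tested genes. The median was -0.16, with -0.15 in the control pair and -0.19 in the mutant pair. For 22 of the 41 the highest value was in mutant 1, against 28.6% of all tested genes. smad6b, an inhibitor that the pathway itself induces, was at 11.05 FPKM in control 2 and 11.001 FPKM in mutant 2, against 15.4 FPKM in control 1 and 17.4 FPKM in mutant 1 (-0.55, SE 0.0781, adjusted p = 0.0164 in limma). The pseudoreceptor gene bambib fell by 0.53 and the target gene id1 by 0.27, with 803 and 744 FPKM in control 2 and mutant 2 against 937 and 926 FPKM in control 1 and mutant 1. The member called higher was the antagonist gene chd. The ligand genes bmp2b (-0.23), bmp4 (-0.29) and bmp7a (-0.29) were not called. In the Wnt list 3 of 38 members were called higher (cdx4, frzb, wnt8a) and 4 lower, among them the ligand gene wnt4a (-0.48), the secreted antagonist gene sfrp5 (-0.50) and APCDD1L (-0.73), with a median of -0.12.

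Extracellular matrix genes held the most calls in number of any of the 46 lists. Some shorter lists held a larger share, such as the tailbud list with 10 of 19. Of 42 tested rows 11 were called lower and 0 higher, against 2.19% and 2.45% of all tested genes. In 35 rows the difference was below 0 (median -0.25, with -0.27 in the control pair and -0.24 in the mutant pair), while 45.3% of all tested genes lay above 0. The highest value was that of mutant 1 in 24 of the 42 rows, against 28.6% of all tested genes. tgfbi, a secreted adhesion protein gene, was at 24.1 FPKM in control 2 and 26.7 FPKM in mutant 2, against 37.4 FPKM in control 1 and 39.6 FPKM in mutant 1. Its means of 25.4 ± 1.83 FPKM in libraries numbered 2 and 38.5 ± 1.495 FPKM in those numbered 1 (SD, n = 2 each) differed by -0.59 on the log2 scale, with an SE of 0.0595 (adjusted p = 0.00676 in limma). sparc, which encodes the collagen-binding protein osteonectin, was at 27.2 and 26.3 FPKM against 39.7 and 37.6 FPKM (-0.52, SE 0.0581, adjusted p = 0.00922). Both genes showed wide gaps between the groups. The thrombospondin gene thbs4b fell by 1.02, the basement membrane collagen gene col18a1 by 0.34 and the fibrillar collagen gene col1a2 by 0.91 at levels near 1 FPKM. lamb1a fell at both of its overlapping loci (-0.28 and -0.23), which may share reads. emilin3a (0.23) and the collagen-modifying plod2 (0.23) lay on the other side of 0 and were not called.

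**Figure D5:**
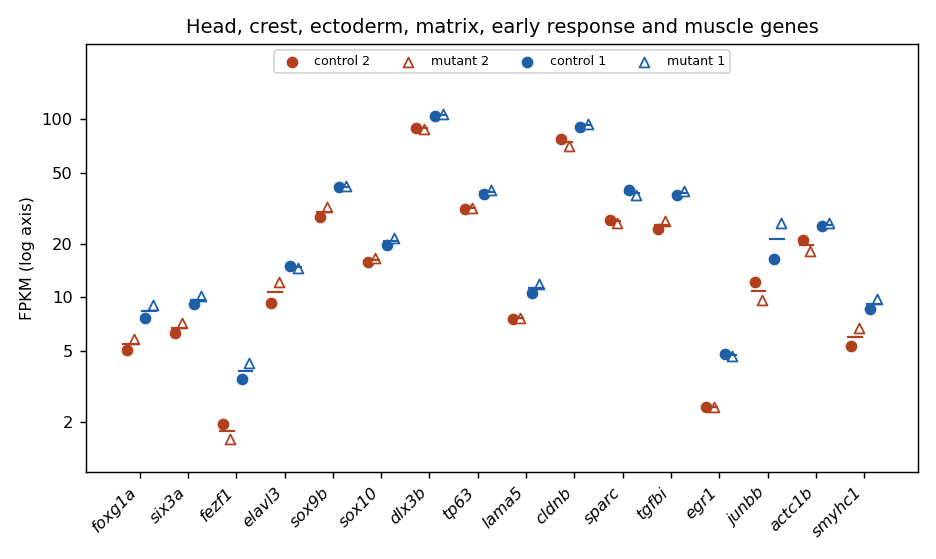
FPKM on a log axis for 16 genes of the head, crest, ectoderm, matrix, early response and muscle in control 2 and mutant 2 (red, left) and in control 1 and mutant 1 (blue, right), with circles for controls, triangles for mutants and bars for the mean of each pair of libraries. In each gene both red values lie below both blue ones, as for tgfbi at 24.1 and 26.7 against 37.4 and 39.6 FPKM. The genes were picked as lower in the libraries numbered 2, so this separation follows from the choice. For junbb mutant 1 stands apart at 26.04 FPKM.

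Immediate early genes, which cells induce within minutes of growth factors or wounding, held 10 falls, with mutant 1 often the highest library. Of 37 tested members 10 were called lower and 0 higher, against 2.19% and 2.45% of all tested genes. The median of -0.25 was -0.09 in the control pair and -0.32 in the mutant pair. Among the called genes with nearly equal differences in both genotypes were egr1, a zinc finger factor (2.45 FPKM in both control 2 and mutant 2, 4.85 and 4.72 FPKM in control 1 and mutant 1, -0.84), ctgfa, a matrix signalling gene (-0.63), and the Myc gene myca (-0.62). The AP-1 genes were uneven. junbb was at 12.2 FPKM in control 2 and 9.69 FPKM in mutant 2, against 16.5 FPKM in control 1 and 26.04 FPKM in mutant 1 (-0.90, SE 0.183, adjusted p = 0.0397 in limma). Its partner gene fos was at 11.7 and 7.58 FPKM in control 2 and mutant 2, against 16.2 and 38.6 FPKM in control 1 and mutant 1, and junba at 5.53 and 3.12 FPKM against 8.36 and 21.1 FPKM. Neither was called, and both were chosen after their values were seen. Mutant 1 held the highest value in 26 of the 37 genes, against 28.6% of all tested genes. The list's median was -0.36 without control 1, -0.26 without control 2, -0.15 without mutant 1 and -0.23 without mutant 2. In the same fits of 3 libraries 4, 0, 0 and 0 members were called, few genes of the whole table being called in any of them. The part of mutant 1 in the result was not tested.

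Yolk syncytial layer genes, which supply lipoproteins and proteases to the embryo, split evenly. Of 28 tested rows 5 were called higher and 5 lower, against 2.45% and 2.19% of all tested genes. The median was 0.03, or -0.02 to 0.10 over the settings tried. The apolipoprotein genes apoa1a (2878 FPKM in control 2 and 2505 FPKM in mutant 2, against 3537 FPKM in control 1 and 3134 FPKM in mutant 1, -0.31) and apoa4 (-0.43) fell, as did rbp4, a retinol carrier at 32.4 and 36.6 FPKM in control 2 and mutant 2 against 50.2 and 49.7 FPKM in control 1 and mutant 1 (-0.53, SE 0.0644, adjusted p = 0.0129 in limma). The lysosomal protease gene ctsc (911 and 828 FPKM against 734 and 683 FPKM, 0.29), the sulfate transporter gene slc26a1 (0.51) and the nuclear receptor gene hnf4a (0.39) rose. Genes of this list thus moved in opposite directions, and its summed level, 22688 FPKM in control 2 and 20843 FPKM in mutant 2 against 23074 FPKM in control 1 and 21763 FPKM in mutant 1, overlapped between the groups.

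Other tissue and general program lists held few calls in number. Some of them are short, so that 1 to 4 calls can exceed the share over all tested genes. Of all tested genes 2.45% were called higher and 2.19% lower. Both libraries numbered 2 lay below both numbered 1 in 13 of 23 blood and endothelial genes and 6 of 11 pronephros genes. They lay above in 1 and 2. The shares over all tested genes were 29.1% below and 24.1% above. Of the blood and endothelial genes 2 of 23 were called lower (gata2a and hbbe1.1, list median -0.12), of the pronephros genes 2 of 11 lower (hnf1bb at -0.54 and jag2, median -0.20) and of the cardiac and lateral plate genes 1 of 26 lower (mef2cb, -0.73, at 0.568 and 1.19 FPKM in control 2 and mutant 2 against 1.41 and 2.11 FPKM in control 1 and mutant 1, so near the lower limit of testing). In the endoderm list hnf4a rose and nkx2.3 fell (-0.71). Of the germ line and maternal genes 1 of 14 rose, gra (0.63). Among 17 left-right and cilia genes 0 were called in limma. Of these 5 (29.4%) had an unadjusted p under 0.05, against 23.1% of all tested genes. For cell cycle genes the count was 1 of 54, nusap1 (0.23), and for heat shock and chaperone genes 1 higher (hsf2, 0.32) and 1 lower (hspa5, -0.23) of 34. The median was 0.02 for the cell cycle list and 0.03 for the heat shock list.

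Cytosolic ribosomal protein genes gave 0 calls among 84 in limma. Of them 21 (25%) had an unadjusted p under 0.05, close to the 23.1% of all tested genes. Both libraries numbered 2 nevertheless lay below both numbered 1 in 48 of the 84 and above them in 6. For all tested genes these shares were 29.1% and 24.1%. Their median was -0.06, which turned to 0.02 under 1 of the settings tried. Mutant 2 held the lowest value in 70 of the 84, against 2891 of all 13202 tested genes. Of 79 translation factor genes 5 were called higher, against 2.45% of all tested genes. The median of this list was -0.0008, with 38 members above 0 and 41 below. Among the 5 called were the cap-binding genes eif4ea (0.30) and eif4eb (0.33) and the initiation factor subunit gene eif3hb (0.90). The last has a second copy next to it that was also called higher (0.64) and may share reads. Nuclear respiratory chain genes had 1 of 91 called higher (cycsb, 0.24) and 2 lower. In 37 of the 91 both libraries numbered 2 lay below both numbered 1, and in 10 above them. Of 11 mitochondrially encoded ones 0 were called in limma, and 7 (63.6%) had an unadjusted p under 0.05. Their median was 0.12. Both libraries numbered 2 lay above both numbered 1 in 8 of the 11, such as mt-atp6 (0.19), and below them in 1, mt-co1 (-0.24). Over all tested genes these shares were 24.1% and 29.1%. Of the FGF, Notch, retinoic acid and hedgehog lists the medians lay between -0.08 and -0.05. In these lists 3 of 30, 4 of 37, 4 of 33 and 1 of 25 tested members were called, against 4.64% of all tested genes. The FGF, Notch and retinoic acid lists thus lay above that share. Called in the retinoic acid list were nr2f1a (-0.47), aldh8a1 (-0.42) and meis4.1a as lower and hoxb1b as higher. The circadian and light response list had 0 of 30 called in limma, and the cholesterol synthesis list 0 of 25. An unadjusted p under 0.05 was found for 3 (10%) and 7 (28%) of them, against 23.1% of all tested genes. Hypoxia, p53, unfolded protein, antioxidant, histone, proteasome and mitochondrial ribosome lists had medians between -0.05 and 0.01. In that order 1 of 33, 1 of 29, 1 of 38, 2 of 33, 2 of 42, 1 of 42 and 3 of 70 were called. The 4 tested antigen presentation genes were all above 0 and none was called in limma, 2 having an unadjusted p under 0.05.

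Beyond the lists, the largest differences among called genes of at least 5 FPKM were mostly in genes with little annotation. si:dkey-51a16.10 was at 37.6 and 37.2 FPKM in control 2 and mutant 2, against 20.02 and 9.01 FPKM in control 1 and mutant 1 (log2 difference 1.44, SE 0.204, adjusted p = 0.0164 in limma), with its locus of 387 bp among the short ones. asah1a, a lysosomal ceramidase gene, was at 22.6 and 21.4 FPKM against 13.2 and 12.8 FPKM (0.74, SE 0.0677, adjusted p = 0.00598). On the other side si:dkeyp-20e4.9 was at 10.6 and 7.27 FPKM in control 2 and mutant 2, against 23.8 and 18.01 FPKM in control 1 and mutant 1 (-1.19, SE 0.0748, adjusted p = 0.00183). Also lower were the myosin light chain gene MYL4 (6.097 and 6.61 FPKM against 12.0 and 15.7 FPKM, -1.06), the chemokine gene cxcl14 (-0.72), the protocadherin gene pcdh10a (-0.67) and ripply3, a repressor gene of the pharyngeal region that limits Tbx1 activity (3.65 FPKM in both control 2 and mutant 2, 7.23 and 5.79 FPKM in control 1 and mutant 1, -0.75). All 4 deposited values of si:dkey-51a16.10 and of si:dkeyp-20e4.9 lay outside their own intervals.

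No difference by number was called for tbx1. It stood at 4.52 FPKM in mutant 2 and 9.14 FPKM in control 2, against 4.91 FPKM in mutant 1 and 9.08 FPKM in control 1, so the libraries followed their genotype labels in both pairs. The difference by number was -0.05 (SE 0.0918, adjusted p = 0.795 in limma). nkx2.5, a heart progenitor gene, was at 1.17 FPKM in mutant 2 and 1.35 FPKM in control 2, against 0.526 FPKM in mutant 1 and 1.69 FPKM in control 1 (0.23, SE 0.224, adjusted p = 0.600), and the groups overlapped. Of the 613 genes called by number, 3 were also among the 24 called by genotype.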

How the data were processed

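RNA of 4 whole-embryo libraries (2 control, 2 tbx1 mutant) was measured by paired-end sequencing of polyadenylated RNA. The authors deposited a single table that gives each gene an FPKM value, 95% bounds and a status in every library. Per the file headers its value columns are RPKM, while a stray header line at its end reads FPKM. The submitters' processing notes list Cuffdiff 2.0.2, Cufflinks 2.1.1, TopHat2 2.0.8, TopHat and the Zv9 (danRer7) build, without their order. Counts and read totals were not used here, and whole reads could not be recovered, so no count model was run; depth is given only relative to control 1, from interval widths.

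The deposited values were taken without rescaling and set on the log2(FPKM + 0.5) scale, which understates the changes of low genes. limma 3.58.1 in R 4.3.3 fitted genotype plus library number with empirical Bayes and a mean-variance trend (two-sided, Benjamini-Hochberg, threshold 0.05). With 1 residual degree of freedom and 6.95 from the prior, calls lean on the pooled spread. Same-numbered libraries deviated together (r = 0.35 across genes). Of 1411 entries in the symbol lists, 1281 were found under the symbol in the table, 56 under a newer symbol for the same gene ID, and 74 were not found. The 46 lists, the comparison and the tests were chosen with earlier results of these data known, and 3 lists were added after the values were seen. Together the 46 lists held 1286 distinct tested genes, 45 called higher and 77 lower; 309 matched entries fell below the limits of testing.

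Genes are named by rule. Per direction these are the 15 called genes of largest difference with a mean of at least 5 FPKM and equal sign in both genotypes. For these genes the shared sign was thus a condition of being named. Per list they are up to 6 called members of lowest p, or the 2 of lowest p where none was called. The genes tbx1 and nkx2.5 are named as well. List members given without a call show the rest of a list and were picked with those values in view. Some genes the rule names are not described. Alternatives were other pseudocounts, minimum values, locus lengths, scalings, models and thresholds, each library left out, and only values inside their own interval (added after seeing the data). The fit was tested on simulated data. Figures were drawn with matplotlib 3.10.9.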

Additional observations from a re-analysis of the deposited data

Results flagged for a closer look

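For tbx1 and nkx2.5 the differences by number had opposite signs in the 2 genotypes; neither gene was called in limma, and the difference between genotypes was not tested. For tbx1 the log2 difference of libraries numbered 2 minus libraries numbered 1 was -0.11 in mutants and 0.0089, close to 0, in controls. For nkx2.5 it was 0.70 in mutants and -0.24 in controls, at levels from 0.526 to 1.69 FPKM.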

How the results depend on the processing

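Counts of genes called in limma (324 higher, 289 lower) were 2 and 4 with loci of any length, 913 and 605 with a minimum mean of 5 FPKM, 41 and 29 without the genotype term, 0 and 0 with no minimum mean, 0 and 0 without the trend, 774 and 643 at an adjusted p under 0.10, and 209 higher after quantile normalization. Leaving out 1 library gave 0 to 33 higher and 0 to 30 lower; with 3 libraries genotype was not in the model and the lone sample of a number was assumed to vary like the others. Unadjusted p under 0.05 was found for 1896 to 3701 genes over the settings. The cause of these shifts was not tested. The genotype comparison called 24 genes with the library number as a replicate block and 7 with no replicate block, all 7 among the 24; samples share only a number, so this does not measure the strength of the genotype effect. Of 148 named genes 134 were called, and their 2467 values under the alternatives all had the sign reported. These genes were named for being called and the alternatives refit the same libraries, so the equal signs are no independent support. With 1 library left out, tbx1 ranged from -0.52 to 0.42 and reversed without control 1 (0.36) and without mutant 2 (0.42); nkx2.5 ranged from -0.32 to 0.78 and reversed without mutant 1 (-0.32). These fits hold unequal genotypes with no genotype term. Medians of the tailbud, posterior Hox, matrix, immediate early, neural crest, epidermis and somitogenesis lists kept their sign in 18 of 18 settings. So did lists with medians near 0, such as heat shock (0.03) and genes fading after gastrulation (0.01). A stable sign therefore does not set the lists apart, and it comes from refits of the same libraries. Precision limits low genes: at 1 to 5 FPKM the median interval spanned 17.2% of the value to each side in control 2 and 18.3% in mutant 2, against 15.9% in control 1 and 17.4% in mutant 1.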

Other observations

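Several genes that build ribosomes in the nucleolus rose in the libraries numbered 2. The list was put together by gene name after the values had been seen, so it has no test. Of 91 tested members 18 were called higher and 0 lower, against 2.45% and 2.19% of all tested genes. In 81 members the difference was above 0 (median 0.15, with 0.16 in the control pair and 0.13 in the mutant pair), against 45.3% of all tested genes. nop16, a factor of large subunit assembly, was at 194 FPKM in control 2 and 179 FPKM in mutant 2, against 114 FPKM in control 1 and 142 FPKM in mutant 1 (log2 difference 0.55, adjusted p = 0.0212 in limma). mak16, of the same pathway, was at 116 and 114 FPKM in control 2 and mutant 2 and at 88.0 and 92.1 FPKM in control 1 and mutant 1 (0.35, adjusted p = 0.0178 in limma). npm1a, encoding nucleophosmin, was at 1226 and 1177 FPKM in control 2 and mutant 2 and at 1007 and 984 FPKM in control 1 and mutant 1 (0.27, adjusted p = 0.0274 in limma). Of 72 hnRNP and splicing factor genes, also listed after the fact, 7 were called higher and 0 lower (median 0.06), among them hnrnpab (0.25), hnrnpd (0.29) and prpf38a (0.33). Of 44 claudin and tight junction genes, listed likewise and sharing cldnb with the periderm list, 8 were called lower and 0 higher (median -0.17), such as cldn1 at 3.30 and 3.28 FPKM in control 2 and mutant 2 against 5.82 and 5.91 FPKM in control 1 and mutant 1 (-0.75), and cldni (-0.56).

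Some called genes lay next to each other, a count given without a test. Of the 324 genes called higher, 10.2% had an adjacent tested gene called higher, against 4.64% of uncalled genes. For the 289 called lower the share was 12.1%, against 4.08% of uncalled genes with an adjacent gene called lower. Named pairs include her1 and her7, dlx4b and dlx3b, six2a and six3a, he1a and he1b, and cldn1 with its flanking genes. apoea, an apolipoprotein E gene, fell by 1.44 beside zgc:112992, which fell by 1.04. Some pairs are copies or overlapping loci that may share reads, such as the 2 loci of lamb1a. Over the 25 chromosomes 3.13% (chromosome 7) to 7.32% (chromosome 14) of tested genes were called. Genes called higher had a median level of 34.3 FPKM and those called lower of 9.77 FPKM, against 8.28 FPKM over all tested genes, and median locus lengths of 7210 and 10417 bp, against 14524 bp.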
